A study of Mus musculus with 6 samples.

Results

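The satellite cell and myogenic transcription factors Pax7, Myf5, Myod1, Myog, Myf6, Mef2a, Mef2c, Mef2d and Six4 were followed in the tibialis anterior, a mostly fast-fibred muscle of the mouse shin. The 9 genes were found by their GENCODE M21 symbols among the 54393 genes of the table, each matched 1 gene, and all 9 passed the filter on low values that kept 16031 genes for testing. RNA had been sequenced from 3 WT muscles (titled C57_1, C57_3 and C57_4, here WT replicates 1, 3 and 4) and 3 muscles labelled Dock3 KO (replicates 1, 2 and 3), all from adult mice, and values below are always listed in that order. The labels give no treatment or sex, and how the Dock3 allele was made is not given in the sources used here. The labels do not state that each muscle came from a different animal, so p-values measure the spread between these muscles. Dock3 activates the small GTPase Rac, and the series' title places the gene in myogenic fusion, so the comparison asks how the RNAs of the myogenic programme stand in the muscles labelled Dock3 KO.

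Adult muscle is built of multinucleate fibres and holds a small reserve of stem cells, the satellite cells, under the sheath of each fibre. Pax7 marks satellite cells. On injury they switch on the MyoD family of basic helix-loop-helix factors in sequence: Myf5 and Myod1 set the myoblast fate, and Myog and Myf6 (also called MRF4) act in differentiation. Fibre nuclei keep transcribing Myf6 and some Myod1 in the adult. MyoD-family proteins bind the short DNA word CANNTG (an E-box) as partners of E proteins, Mef2 proteins bind A/T-rich sites and act with them, and Six4 binds the MEF3 site of genes such as Myog.

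The libraries were checked first. Their normalized counts, the unit of every level below, summed to between 23520223 and 33393950, and 23860 to 25185 genes per library were above 0. Dock3 stood at 118 to 169 in WT and 22.4, 1.78 and 1.54 in the muscles labelled Dock3 KO, all below WT, with replicate 1 well above the other two. Fast-fibre RNAs dominated, with Myh4, the IIB myosin heavy chain, at 351120 to 552974, and the heart gene Nppa was at 0 to 1.78. The summed level of each of 12 lists of cell type markers overlapped between the genotypes. A sum mostly follows its most abundant genes, and the macrophage sums overlapped only narrowly, at 3277 to 3524 in WT and 2555 to 3278 in Dock3 KO. Of the 73 tested genes of these lists 1, the collagen gene Col1a1, passed the limma test, at 1954 to 3799 in WT and 7278 to 8958 in Dock3 KO. The abundant RNAs Gm42418 and Lars2 together took 17.9% and 20.3% of Dock3 KO replicates 1 and 2 and 3.00% to 3.64% of the other libraries, so the factors nearest to the threshold are also given without these 2 libraries (the high-share libraries). That leaves a single Dock3 KO muscle, replicate 3, so those differences are given with no test.

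None of the 9 factors passed the test between the genotypes. Passing meant a limma p, adjusted by Benjamini-Hochberg over every tested gene, under 0.05: this held for 1.03% of all genes (0.443% higher and 0.586% lower in Dock3 KO) and for 0 of the 9 factors. At an unadjusted p under 0.05 the count was 3 of 9, namely Pax7, Myod1 and Myf6, all lower in Dock3 KO, against 10.5% of all genes tested, 4.82% higher and 5.70% lower. The genotypes were fully apart for Myod1 and Myf6, 2 of 9, both lower, where 16.2% of all genes did not overlap, 7.60% higher and 8.65% lower. The log2 difference, Dock3 KO minus WT on the log2(normalized count + 1) scale, was below 0 for 6 factors and above 0 for 3, with a median of -0.32 against -0.01 over all genes tested. No factor passed under any of the 19 alternative settings (18 for Myf5), and the smallest adjusted p there was 0.0602, for Pax7 without Dock3 KO replicate 1 (limma). The setting without both high-share libraries rests on a single Dock3 KO muscle and is not counted on as a test.

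**Figure D1:**
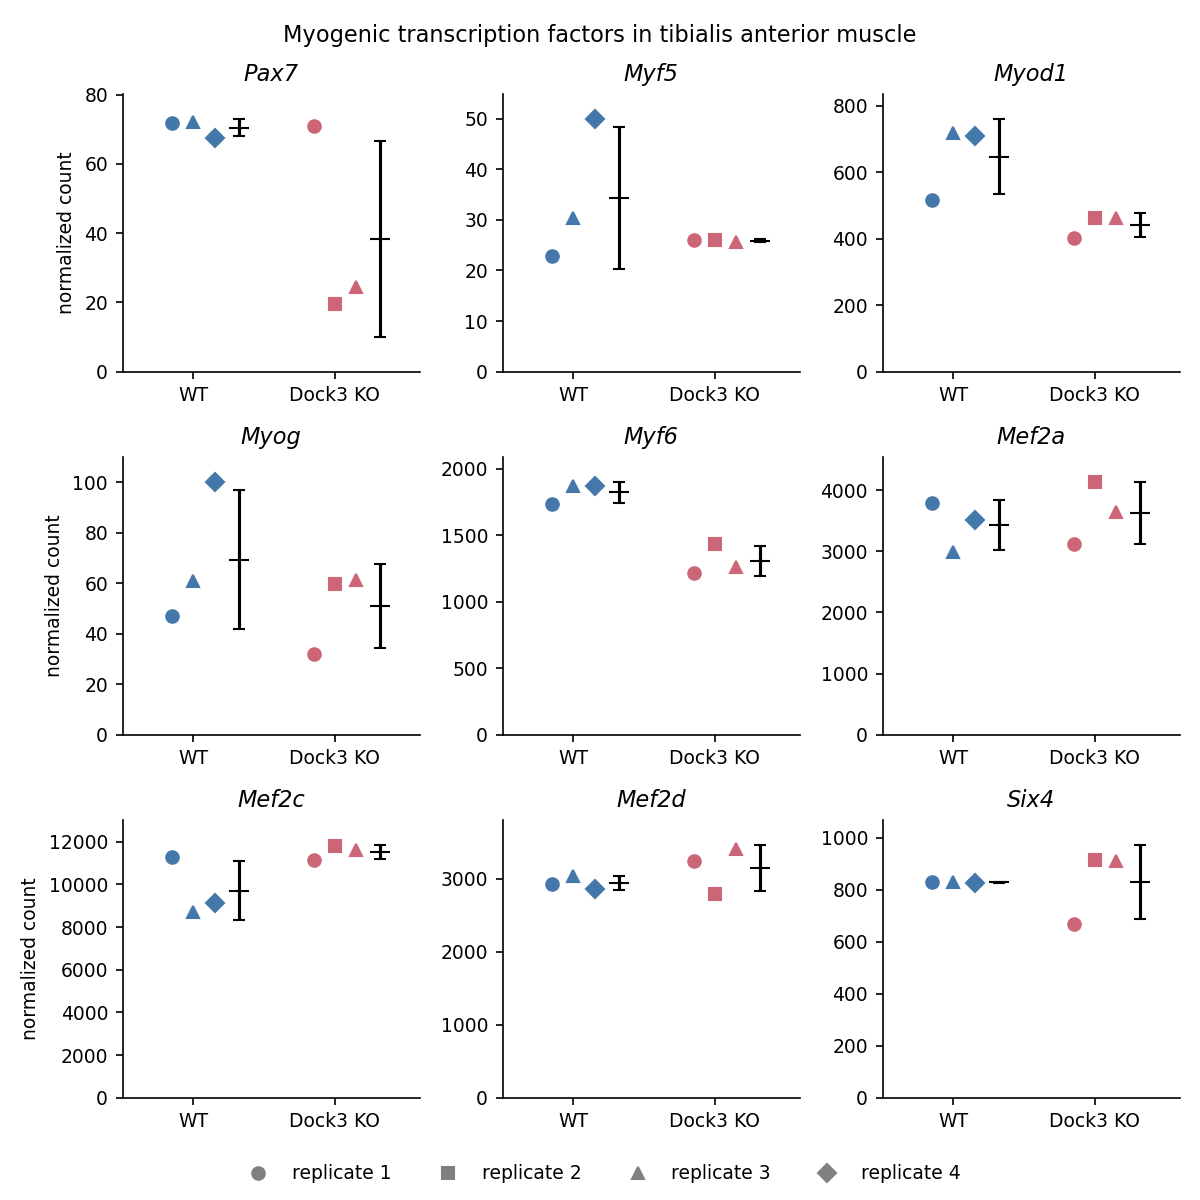
Normalized count (vertical axes, each from 0) of the 9 factors in each muscle, WT in blue and Dock3 KO in red, with the marker shape giving the replicate number and the black bar the mean and SD of 3 muscles. The Myod1 and Myf6 points of Dock3 KO lie below all WT points, and Pax7 of Dock3 KO replicate 1 lies among the WT points at 71.0.

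Pax7, the satellite cell factor (chromosome 4, 139737062 to 139833528, minus strand, GRCm38), split the Dock3 KO muscles. The WT muscles gave 71.9, 72.0 and 67.6 normalized counts, and the Dock3 KO muscles 71.0, 19.4 and 24.6. Dock3 KO replicate 1 lay within the narrow WT range, and the other two were far below it, at 27.6% and 34.8% of the WT mean. The means were 70.5 ± 2.53 for WT against 38.3 ± 28.4 (SD, n = 3 each). The log2 difference was -1.09 with a 95% interval from -2.08 to -0.10, an unadjusted p of 0.0339 and an adjusted p of 0.412 (limma). The two-sided exact permutation p was 0.2, where 0.1 is the smallest p that 3 against 3 allow. Without Dock3 KO replicate 1 the log2 difference was -1.64, and without replicate 2 it was -0.74, with limma adjusted p-values of 0.0602 and 0.710. Without both high-share libraries it was -1.48, from the 1 remaining Dock3 KO muscle. Replicate 1 is also the Dock3 KO library with the highest Dock3 value, and a link between this and the split was not tested. The Gm42418 and Lars2 share was high in replicates 1 and 2, and with log2 Gm42418 as a covariate the Pax7 difference was -1.49 (limma adjusted p 0.714); the part of that share in the split was not tested.

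In whole muscle, fewer satellite cells and less RNA per cell cannot be told apart. Other satellite cell genes are set beside Pax7 as values, and they cannot separate these readings either. Cdh15, the M-cadherin of satellite cells and myoblasts, stood at 316 to 327 in WT and at 288, 242 and 239.6 in the Dock3 KO muscles, apart from WT but with an unadjusted p of 0.0587 (limma). Calcr, a calcitonin receptor of quiescent satellite cells, was under the filter, at 3.34 to 5.16 in WT and 11.97, 7.15 and 3.28 in Dock3 KO. Chrdl2, also under it, was higher in every Dock3 KO muscle, at 8.88 to 15.1 against 2.83 to 7.19 in WT. Sdc4, a syndecan of satellite cells that other cell types also express, was apart in the other direction, at 561 to 653 in WT and 680.3 to 802 in Dock3 KO, with an unadjusted p of 0.0537 (limma). Vcam1 overlapped between the genotypes, at 103 to 126 in WT and 107 to 146 in Dock3 KO. Fgfr4 overlapped as well, at 20.1 to 45.3 and 29.3 to 46.5. The summed level of the 8 satellite cell markers, of which Sdc4 is the most abundant and Pax7 and Myf5 are members, was 1132 to 1242 in WT and 1120 to 1389 in Dock3 KO.

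Myod1, which can turn other cell types into muscle (chromosome 7, 46376474 to 46379099, plus strand), was lower in all 3 Dock3 KO muscles, though short of the threshold. The WT muscles gave 516, 717 and 707 and the Dock3 KO muscles 401, 461 and 462. The groups did not overlap, and the lowest WT muscle, replicate 1, came nearest to the Dock3 KO range. The means were 647 ± 113 for WT against 441 ± 35.1 (SD, n = 3 each). The log2 difference was -0.54 with a 95% interval from -0.91 to -0.16 and an adjusted p of 0.249 (limma), and the exact permutation p was 0.1. Without both high-share libraries the difference was -0.47, from 1 Dock3 KO muscle.

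Myf6, which fibre nuclei of adult muscle express (chromosome 10, 107492853 to 107494737, minus strand), had the smallest p of the factors. The WT muscles gave 1733, 1869.9 and 1869.8 and the Dock3 KO muscles 1218, 1435 and 1262. Every Dock3 KO muscle lay below every WT muscle, at 66.8%, 78.7% and 69.2% of the WT mean. The means were 1824 ± 79.2 and 1305 ± 115 (SD, n = 3 each). The log2 difference was -0.49, its 95% interval -0.76 to -0.21, with an unadjusted p of 0.00281 and an adjusted p of 0.140 (limma). The exact permutation p was 0.1. The difference ranged from -0.76 to -0.44 over 19 alternatives and was -0.53 without both high-share libraries, from 1 Dock3 KO muscle. The -0.76 came from scaling to equal library totals, which moved the median of all genes to -0.28. Relative to that median Myf6 stood at -0.48.

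Myf5 (chromosome 10, 107482908 to 107486134, minus strand) is the neighbour of Myf6, with 6718 bases between them. The WT muscles gave 22.8, 30.3 and 50.0 and the Dock3 KO muscles 25.9, 26.1 and 25.7. The Dock3 KO values sat together inside the wide WT range, with a coefficient of variation of 0.892% against 40.9% in WT. These counts are low and the difference in spread was not tested. The log2 difference of -0.32 had a 95% interval from -1.18 to 0.54 and an adjusted p of 0.855 (limma). Without WT replicate 4 the difference was -0.02.

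Myog (chromosome 1, 134289989 to 134292548, plus strand), which drives terminal differentiation and is raised in fibres that lose their nerve, had overlapping groups. The WT muscles gave 47.0, 60.8 and 100.2 and the Dock3 KO muscles 31.8, 59.8 and 61.3. WT replicate 4 was the highest and Dock3 KO replicate 1 the lowest, and the other 4 muscles lay between 47.0 and 61.3. The log2 difference was -0.42 with a 95% interval from -1.25 to 0.41 and an adjusted p of 0.771 (limma). Leaving out WT replicate 4 gave -0.13, and leaving out Dock3 KO replicate 1 gave -0.12. WT replicate 4 was thus the highest of the 6 for Myf5 and Myog alike.

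The start of Myog is a textbook meeting point of the factors described here, and its sequence is printed for that reason. The window runs from 250 bases before to 50 after the RefSeq start (GRCm38.p6, chr1:134289754-134290053, plus strand). Capitals mark, in order, an E-box, the MEF3 word TCAGGTT bound by Six4 and its relatives, the word TATTTAT inside the known A/T-rich Mef2 site of this gene, and the E-box next to the start.

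Myog: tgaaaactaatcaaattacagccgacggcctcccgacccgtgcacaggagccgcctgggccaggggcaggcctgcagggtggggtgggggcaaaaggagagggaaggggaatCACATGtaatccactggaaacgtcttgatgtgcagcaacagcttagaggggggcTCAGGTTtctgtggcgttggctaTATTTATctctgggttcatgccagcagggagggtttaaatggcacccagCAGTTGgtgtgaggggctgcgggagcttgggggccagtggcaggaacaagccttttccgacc

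The E-boxes begin 138 and 12 bases before the start, the MEF3 word 84 and TATTTAT 61 bases before it. Both strands of 32851 RefSeq windows of 300 bases were searched with these words. CANNTG was present in 72.3% of them, TCAGGTT in 4.07% and TATTTAT in 5.60%. RefSeq windows were matched for 7 of the 9 factors, 10 windows in all, with none for Myod1 and Myf6. CANNTG was present in 3 of the 10, TCAGGTT in 3 and TATTTAT in 1. TCAGGTT also stood in a window of Mef2c and in 1 of Six4 itself. These are matches of letters, not measured binding.

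The Mef2 factors are MADS-box proteins that work with the MyoD family and, in the adult fibre, link calcium signals to transcription. None of the 3 passed the test. Mef2c (chromosome 13, 83504034 to 83667080, plus strand) gave 11284, 8723 and 9127 in the WT muscles and 11158, 11796 and 11634 in the Dock3 KO muscles. WT replicate 1 lay among the Dock3 KO values, and the other WT muscles lay below them. The log2 difference was 0.26, with a 95% interval from -0.05 to 0.56 and an adjusted p of 0.574 (limma).

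Mef2a (chromosome 7, 67231163 to 67372858, minus strand) gave 3799, 2986 and 3513 in the WT muscles against 3119, 4135 and 3637, with interleaved values. Mef2d (chromosome 3, 88142372 to 88172086, plus strand) gave 2928, 3035 and 2855 against 3246, 2794 and 3402, where Dock3 KO replicate 2 was the lowest of all 6 and the other two the highest. Their log2 differences were 0.08 and 0.09, with 95% intervals from -0.25 to 0.41 and from -0.18 to 0.37, and their adjusted p-values were 0.918 and 0.870 (limma). Scaled to equal library totals, a setting that moved the median of all genes to -0.28, the differences of Mef2a, Mef2c and Mef2d turned to -0.20, -0.019 and -0.18. Relative to that median they were 0.08, 0.26 and 0.10. Mef2a overlaps 3 other annotated genes, 2 of them on its own strand, Mef2d overlaps the antisense gene 1700113A16Rik, and whether strand was used in counting is not given in the sources used here.

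Six4 (chromosome 12, 73099609 to 73113456, minus strand), a homeodomain factor of muscle progenitors, had nearly equal values in WT, at 828.9, 830.9 and 825.7. The Dock3 KO muscles gave 667, 916 and 909.6, on both sides of WT. The means were 828.5 ± 2.64 and 830.7 ± 142 (SD, n = 3 each), and the log2 difference of -0.01 had a 95% interval from -0.35 to 0.33 (limma adjusted p 0.992). Without Dock3 KO replicate 1 it was 0.14. Dock3 KO replicate 1 was thus the lowest of the 6 muscles for Six4, Myog, Myod1 and Myf6 and the highest Dock3 KO muscle for Pax7.

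**Figure D2:**
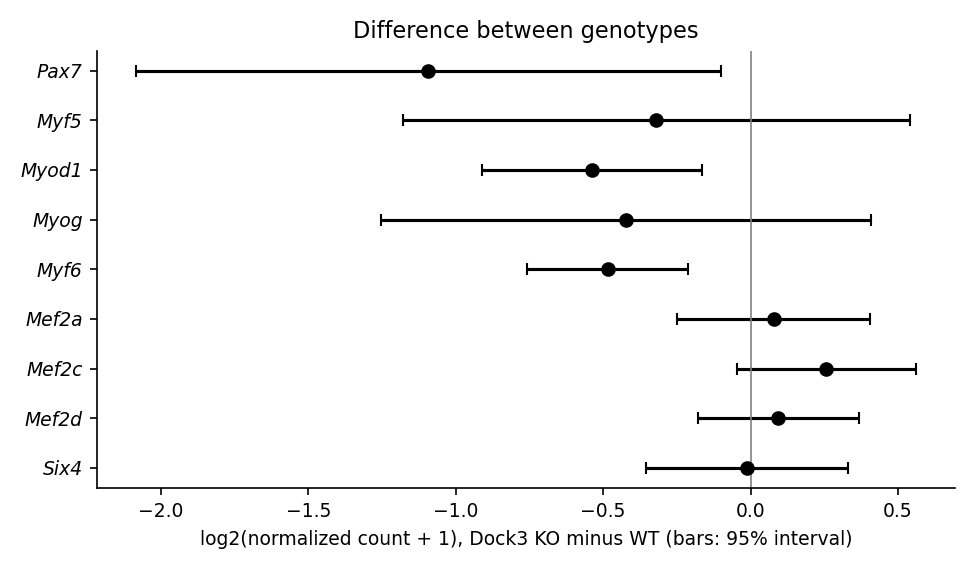
Log2 difference, Dock3 KO minus WT, of each factor (horizontal axis) with its 95% interval from limma, 3 muscles per genotype. The intervals of Pax7, Myod1 and Myf6 lie below 0 before adjustment for the number of genes tested, and those of the other 6 factors span 0.

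Levels of different factors were compared per kilobase of annotated exons. In WT the order was Myf6 at 1444 ± 62.7, Mef2c at 618 ± 87.6, Mef2d at 491 ± 15.1, Myod1 at 348 ± 60.9, Mef2a at 234 ± 28.1, Six4 at 76.3 ± 0.243, Myog at 46.4 ± 18.5, Myf5 at 16.5 ± 6.75 and Pax7 at 12.03 ± 0.431 normalized counts per kilobase (SD, n = 3). Myf5 and Pax7 were the only neighbours whose WT values overlapped. In Dock3 KO, Mef2a at 247 ± 34.6 and Myod1 at 237 ± 18.9 stood in the opposite order, and their values overlapped (SD, n = 3). The order depends on the length used, since the Mef2 genes have many transcripts: over the longest transcript Mef2c, at 1547 in WT, came above Myf6, and Mef2a was at 620.

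**Figure D3:**
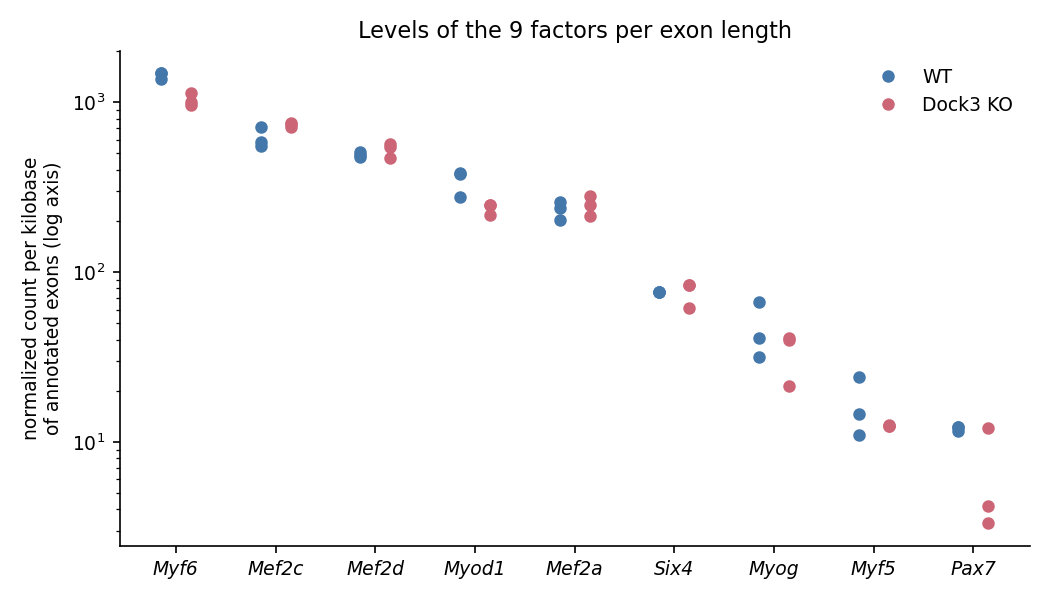
Normalized count per kilobase of annotated exons (log axis) of the 9 factors in each muscle, WT in blue and Dock3 KO in red, ordered by the WT mean. Levels fall from 1444 for Myf6 to 12.03 for Pax7 in WT.

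Within the MyoD family the makeup was similar in both genotypes while the sum, mostly Myf6, was lower in the Dock3 KO muscles. Myf6 made up 75.9% to 81.1% of the summed per-kilobase level in WT and 76.8% to 79.5% in Dock3 KO. Myod1 made up 16.4% to 20.1% and 17.2% to 19.1%. Myog made up 1.86% to 3.43% and 1.75% to 3.15%, and Myf5 0.646% to 1.23% and 0.873% to 1.03%. The sum was 1691, 1921 and 1951 in the WT muscles against 1214, 1437 and 1301, without overlap. Since Myf6 makes up most of the sum, its lack of overlap largely restates that of Myf6, and no gene of the family passed. The sum was formed with the results of its genes known and is given as description, without a test.

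The genes around these factors were taken as 5 lists of 95 genes, 90 of them tested. Of the 90, 3 fell and 0 rose at an adjusted p under 0.05 (limma), 3.33% against 1.03% of all genes tested. At an unadjusted p under 0.05 (limma), 20 were lower and 5 higher, 27.8% against 10.5%. The lists were chosen with earlier results of these data known. These shares, and those of each list below, are therefore given as description and not as a test of the lists. The 3 genes were Mamstr, Gadd45a and Ncam1. None of the 3 passed with log2 Gm42418 as a covariate or with the replicate block, and between 0 and 3 list genes passed when 1 library was left out. Without Dock3 KO replicate 1 the 3 that passed were Mamstr, Bhlhe41 and Xirp1.

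**Figure D4:**
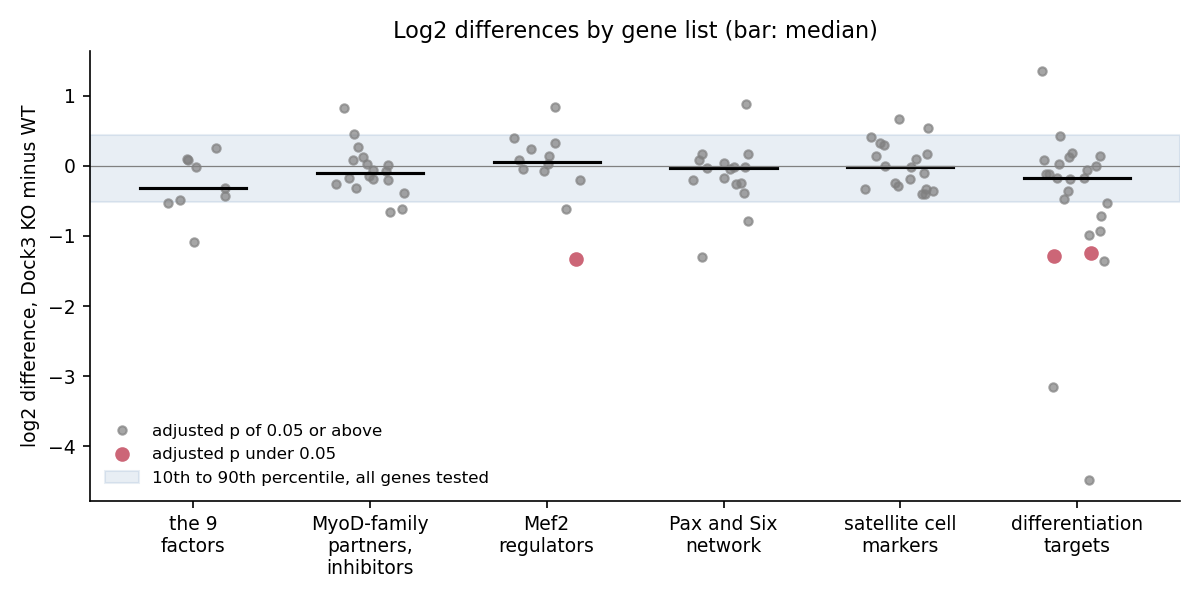
Log2 difference, Dock3 KO minus WT (vertical axis), of the 9 factors and of the tested genes of each list, with the list median as a bar and the 10th to 90th percentile of all genes tested shaded. The red points are Mamstr among the Mef2 regulators and Gadd45a and Ncam1 among the differentiation targets, and the lowest point is Mymx, which was listed at 0 in every Dock3 KO muscle.

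Among 12 tested regulators of Mef2, 1 fell and 0 rose at the threshold (limma), 8.33% against 1.03% of all genes tested, and the list median was 0.05. With the list chosen when earlier results were known, this share is description and not a test. Mamstr, which encodes MASTR, a coactivator that binds Mef2 proteins (chromosome 7, 45639977 to 45646521, plus strand), was the one that fell. The WT muscles gave 475, 443 and 442 and the Dock3 KO muscles 266, 163 and 135. The groups were wide apart, and replicate 1 was the highest of the Dock3 KO muscles. The means were 453 ± 18.7 and 188 ± 69.3 (SD, n = 3 each), a log2 difference of -1.32 (SE 0.237, limma adjusted p 0.0305). Over 19 alternatives the difference stayed between -1.78 and -1.12 and the adjusted p between 0.00294 and 0.163 (limma), with 11 past the threshold. That count includes the fit left with a single Dock3 KO muscle, which is no test of the genotypes. When 1 library was left out it passed only without Dock3 KO replicate 1 (limma adjusted p 0.00319).

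The start of Mamstr is printed because it is the called partner of the Mef2 factors (GRCm38.p6, chr7:45639727-45640026, plus strand). Capitals mark its single E-box, which begins at base 26 of the transcript. CANNTG was present in 72.3% of all windows searched, and a match of letters is not measured binding. Neither TCAGGTT nor TATTTAT was found in it.

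Mamstr: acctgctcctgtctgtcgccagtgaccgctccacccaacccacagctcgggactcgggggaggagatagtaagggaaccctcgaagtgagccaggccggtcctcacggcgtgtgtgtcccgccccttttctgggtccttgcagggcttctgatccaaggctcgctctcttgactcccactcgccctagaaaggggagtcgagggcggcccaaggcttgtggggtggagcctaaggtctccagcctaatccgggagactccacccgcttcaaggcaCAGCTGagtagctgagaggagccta

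Mapk7, the ERK5 kinase that phosphorylates Mef2 proteins, stood at 49.0 to 63.4 in WT and at 89.9 to 112 in Dock3 KO, without overlap, and did not pass (log2 difference 0.83, limma adjusted p 0.202). Akap6, a scaffold of the nuclear envelope and the most abundant of the list, stood at 2026 ± 291 and 2240 ± 322 (SD, n = 3 each). Mef2b, the remaining Mef2 gene, was under the filter, at 0 to 3.01 in WT and 0 to 5.08 in Dock3 KO.

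Of 25 tested genes on the list of myogenic differentiation targets, 2 fell and 0 rose at the threshold (limma), 8% against 1.03% of all genes tested. The list median was -0.17. The list was chosen with earlier results of these data known, so its share is description and not a test. Gadd45a, a growth-arrest gene that muscle raises on denervation (chromosome 6, 67035096 to 67037457, minus strand), gave 389, 561 and 779 in the WT muscles against 220.0, 260.2 and 204. WT replicate 4 was again the highest. Its log2 difference was -1.28 (SE 0.240, limma adjusted p 0.0381). Ncam1, a cell adhesion molecule of satellite cells and of fibres that lose their nerve (chromosome 9, 49502136 to 49798925, minus strand), gave 209.9, 209 and 144 in WT and 93.7, 78.4 and 64.0 in Dock3 KO. Its log2 difference was -1.24 (SE 0.242, limma adjusted p 0.0464). Schwann cells also express Ncam1, and the summed level of 6 Schwann cell markers was 702 to 1007 in WT and 693 to 895 in Dock3 KO. With 1 library left out, Gadd45a passed only without WT replicate 1 and Ncam1 in none of the 6 fits, where its limma adjusted p was 0.0513 to 0.207. Over the alternatives other than the fit with a single Dock3 KO muscle, the limma adjusted p of Gadd45a ran from 0.00591 to 0.353, with 10 past the threshold. That of Ncam1 ran from 0.0147 to 0.227, with 7. Gadd45a overlaps E230016M11Rik on the other strand and Ncam1 the antisense gene Gm11149.

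Acta1, the main skeletal actin and the most abundant of the list, stood at 349877 ± 23480 and 311062 ± 35085 (SD, n = 3 each), with a limma adjusted p of 0.869. Genes of the list that did not pass are given next, chosen after their values were seen. Mymx, a micropeptide of myoblast fusion that Myod1 controls, gave 8.61, 41.7 and 26.3 in the WT muscles and was listed at 0 in each Dock3 KO muscle (limma adjusted p 0.0544). Its partner Mymk, under the filter, gave 5.21, 11.9 and 23.0 against 0, 1.73 and 2.27. Actc1, the cardiac actin that young and regenerating fibres also make, gave 1313, 548 and 1168 in the WT muscles against 287, 461 and 372 (limma adjusted p 0.0939). The acetylcholine receptor genes Chrna1 and Chrnd, classical E-box targets, had log2 differences of -0.72 and -0.93 and limma adjusted p-values of 0.192 and 0.323. These 5 were picked among genes that were lower in every Dock3 KO muscle than in any WT muscle. Of the 25 tested genes of the list, 9 were lower and 0 higher without overlap, where 8.65% and 7.60% of all genes were.

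The E-box of Gadd45a is shown for comparison with that of Mamstr (GRCm38.p6, chr6:67037358-67037657, minus strand). It begins 67 bases before the start and is in capitals, and neither of the other words was found. With CANNTG in 72.3% of all windows searched, an E-box in both does not set these genes apart. No window was matched for Ncam1.

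Gadd45a: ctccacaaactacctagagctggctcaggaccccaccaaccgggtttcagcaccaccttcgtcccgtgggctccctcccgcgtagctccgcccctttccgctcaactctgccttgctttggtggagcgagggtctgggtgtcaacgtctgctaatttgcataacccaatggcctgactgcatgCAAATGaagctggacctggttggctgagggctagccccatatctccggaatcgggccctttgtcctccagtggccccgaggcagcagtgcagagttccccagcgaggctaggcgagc

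The partners and inhibitors of the MyoD family, 18 tested genes with a median of -0.11, held 0 genes past the threshold (limma). At an unadjusted p under 0.05 (limma) there were 3, all lower, 16.7% against 10.5% of all genes tested. Bhlhe41, a repressor that can hold back MyoD, gave 2037, 1851 and 1716 in the WT muscles and 1548, 1029 and 1123 in the Dock3 KO muscles (log2 difference -0.62, limma adjusted p 0.169). Id2, which sequesters E proteins, stood at 119 to 125 in WT against 101, 66.9 and 67.1 (log2 difference -0.66, limma adjusted p 0.334). Bhlhe40, a relative of Bhlhe41 and the most abundant of the list, stood at 2994 ± 449 and 2290 ± 376 (SD, n = 3 each). Over the list, 11 genes were below 0 and 7 above it, and 3 were lower and 0 higher without overlap, against 8.65% and 7.60% of all genes. Of the other Id genes, Id1 and Id4 were above 0, at 0.27 and 0.03, and Id3 was at -0.32 on the log2 scale.

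The network of Pax7 and Six4, 16 tested genes with a median of -0.04, held 0 genes past the threshold (limma). At an unadjusted p under 0.05 (limma) there were 3, all lower, 18.8% against 10.5% of all genes tested. Six2, a relative of Six4, gave 98.8, 95.1 and 95.8 in the WT muscles against 74.6, 50.8 and 45.6, without overlap (log2 difference -0.78, limma adjusted p 0.292). Tcea3, a transcription elongation factor and the most abundant of the list, stood at 3023 ± 350.1 and 3422 ± 727 (SD, n = 3 each). Pitx3, chosen after its values were seen, gave 94.5, 68.0 and 57.3 in the WT muscles against 72.5, 14.4 and 21.4, so that replicate 1 lay with WT, as for Pax7.

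The satellite cell list, 19 tested genes with a median of -0.01, held 0 genes past the threshold (limma). At an unadjusted p under 0.05 (limma), 3 were higher and 3 lower, 31.6% against 10.5% of all genes tested. Some list genes stood far above Pax7 in WT, which was at 67.6 to 72.0, such as Itgb1 below. Which cells their RNA came from was not tested, so the share is not a result about satellite cells. Without overlap, 4 were higher and 3 lower, where 7.60% and 8.65% of all genes were. The laminin receptor subunits on this list differed in opposite directions. Itga7, the muscle alpha chain, stood at 766 to 974 in WT and at 1125 to 1273 in Dock3 KO (log2 difference 0.42, limma adjusted p 0.292). Itgb1, its beta chain, stood at 5026 to 5958 and at 3689 to 4682 (log2 difference -0.40, limma adjusted p 0.297). Neither pair of groups overlapped and neither gene passed.

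**Figure D5:**
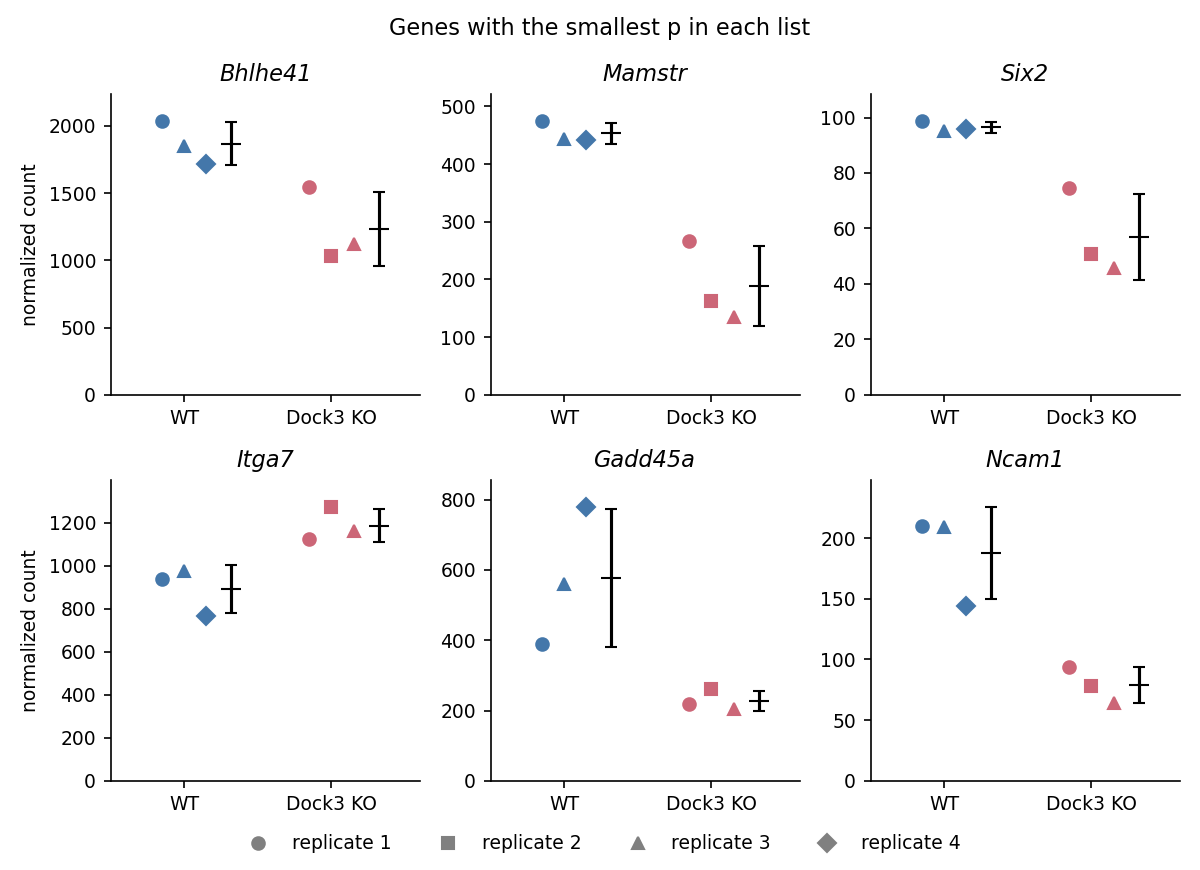
Normalized count (vertical axes, each from 0) in each muscle of the gene with the smallest p in each list, and of Ncam1, WT in blue and Dock3 KO in red, with the mean and SD of 3 muscles in black. Mamstr, Gadd45a and Ncam1 passed the test, and the groups do not overlap in any of the 6 panels.

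The patterns of the factors over the 6 muscles were last set against those of all 13437 protein-coding genes tested, by Pearson's r of the log2 values. The r values were picked as the highest of that many genes over 6 muscles in 2 groups, and are given as description. The most alike were Camk2n2 (r = 0.987) and Aldoart2 (0.984) for Pax7, Dock10 (0.989) and Hyal1 (0.988) for Myf5, Abt1 (0.994) and Phactr4 (0.994) for Myod1, and Pwwp2a (0.994) and Osgin1 (0.993) for Myog. They were Slc44a2 (0.991) and Setd1a (0.988) for Myf6, Ascc3 (0.992) and Foxred2 (0.991) for Mef2a, Ppfibp1 (0.994) and Wwp1 (0.982) for Mef2c, Kdm6b (0.987) and Pskh1 (0.982) for Mef2d, and Anapc1 (0.999) and Sbno1 (0.998) for Six4. Camk2n2 repeated the Pax7 split, at 17.4 to 21.4 in WT and 18.1, 7.02 and 7.95 in the Dock3 KO muscles.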

How the data were processed

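RNA of 6 tibialis anterior muscles was depleted of ribosomal RNA and sequenced as stranded read pairs on an Illumina HiSeq2500, per the labels' protocols. The single deposited table gives a normalized signal for each gene, called a normalized count here. The submitters' processing notes name FastQC, Trim Galore 0.4.5, Salmon 0.12.0, DESeq2 1.22.1 and R 3.5.3, and the builds mm10 and GRCm38, without saying what each did. Whole reads were not recovered: the most frequent low value of a library was 0.775 to 1.52, and 26.8% to 41.0% of values under 10 were whole multiples of it within 0.02, so no count test was run. If that value stood for 1 read, the libraries would hold approximately 21650419 to 32449774 reads.

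Values were converted to log2(normalized count + 1), which understates changes of low genes. Genes with a mean of at least 10 were compared with limma 3.58.1 in R 4.3.3 (eBayes with a trend, no covariates), adjusted by Benjamini-Hochberg over all 16031 genes, threshold 0.05. The steps were tested on simulated data. The changes simulated for limma were larger than any difference of the factors, so that check does not show how well differences of their size are found. The exact permutation tests used scipy 1.17.1. Symbols, positions and exon lengths are those of GENCODE M21. No other gene with at least 95% transcript identity over at least 50% of the shorter transcript was found for the 9 factors or the 3 called list genes (blastn 2.17.0). The factors, the 5 gene lists and the 12 marker lists were chosen with earlier results of these data known. Named are all factors, called list genes, the 2 genes of each list with the smallest p and the 1 with the highest mean, and the 2 genes most like each factor; further genes were picked once their values were known, or serve as satellite cell or tissue checks. One gene that this rule names is not reported here.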

Additional observations from a re-analysis of the deposited data

How the results depend on the processing

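Precision rests on 3 muscles per genotype, on 2 in 1 genotype where a library is left out, and on 1 Dock3 KO muscle (replicate 3, assumed to vary like the WT muscles) without both high-share libraries, and depth per library is known only approximately. No factor passed under any alternative run, and Pax7, Myf5, Myod1, Myog and Myf6 stayed below 0 in all of them. Mef2a turned to -0.20 when rescaled to the same total, to -0.0037 with quantile normalization, and ranged from -0.020 (Dock3 KO replicate 2 omitted) to 0.18 with 1 library left out, below 0 also at -0.019 without the WT library of replicate 3. Mef2c and Mef2d turned to -0.019 and -0.18 when rescaled to the same total, and Six4 turned to 0.14 with log2 Gm42418 as a covariate, ranged from -0.089 to 0.14 (Dock3 KO replicate 1 omitted) with 1 library left out and stood at 0.13 without both Dock3 KO libraries with a high Gm42418 share. With a minimum mean of 50, Myf5 was not tested. The cause of these shifts was not tested, beyond the shift of the median of all genes to -0.28 with equal totals.

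The count of genes called over all genes tested, 165, became 104 with a prior variance without trend, 104 with protein-coding genes only, 57 with log2 Gm42418 as a covariate and 56 without both high-share libraries, and 100 to 159 with 1 library left out (100 when WT replicate 4 and 102 when Dock3 KO replicate 2 was left out). Equal totals gave 177, of which 23.2% were higher against 43.0%. The 3 called list genes became 5 without a filter and 5 with equal totals (Actc1 and Mymx added), and 1 with a prior variance without trend (Mymx). They became 0 with log2 Gm42418 as a covariate, and 0 to 3 with 1 library left out. The count was 0 without WT replicate 4, Dock3 KO replicate 2 or Dock3 KO replicate 3, and 1 each without WT replicates 1 and 3. Over the longest transcript the WT means per kilobase of Mef2a, Mef2c, Mef2d and Six4 were 620, 1547, 544 and 122.

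With the replicate block, on the shared numbers 1 and 3, 127 genes were called, 0 of the list genes and 0 of the factors, and Pax7 stood at -0.77. Deviations of same-numbered muscles correlated at 0.0649 and 0.00663 across genes, and those of differently numbered muscles at -0.0768 to 0.0817. The labels do not state whether the numbers mark related muscles, and these values cannot decide it.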

Other observations

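A few more genes of the list of myogenic differentiation targets are given as values, picked after they were seen, and none passed the test. Xirp1, an actin-binding protein of injured and remodelling fibres, spread widely among the Dock3 KO muscles, at 1269, 2795 and 7217 normalized counts, with the WT muscles at 870.3 to 1345 (limma adjusted p 0.343). Tnnt2, the cardiac troponin T that immature fibres also make, was at 55.2 to 71.8 in WT and 24.7 to 39.5 in Dock3 KO (limma adjusted p 0.254). Chrng, the fetal acetylcholine receptor subunit, gave 8.58, 7.26 and 63.6 in the WT muscles, was listed at 0 in Dock3 KO replicates 1 and 2 and gave 6.19 in replicate 3. Musk, the receptor kinase that organises the neuromuscular junction, was at 359 to 423 in WT and 228 to 354 in Dock3 KO (limma adjusted p 0.399).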
